A study of Mus musculus with 4 samples.

Results

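Sialic acids are sugars that cap the glycans of animal cell surfaces, and 10 genes that make, modify or remove them were followed in dendritic cells sorted from mouse spleen. The 10 were taken by symbol from a table of 17300 genes: Gne, Nans, Nanp, Cmas and Slc35a1 for synthesis and transport, Cmah for hydroxylation, Casd1 and Siae for addition and removal of acetyl groups, and the neuraminidases Neu1 and Neu3. All 10 symbols were found, each with 1 identifier, and all 10 passed the filter on low values. Total RNA was read in 4 libraries, 2 with the genotype label KO and 2 with the label WT. The KO titles read EKO and the series title concerns Siglec-E, so the question put to the data is which transcripts differ where that receptor is lost. The labels give no allele, strain, age, sex or treatment, and the word Allo that opens each column name is not explained. They also do not say whether libraries of a group came from separate animals, so p-values reflect only how these libraries vary, possibly for technical reasons. The KO columns bear numbers that no KO title has, so the names KO A and KO B are used for them.

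Sialic acid is built in the cytosol from UDP-GlcNAc, activated to CMP-sialic acid in the nucleus and carried into the Golgi, where sialyltransferases add it to glycoproteins and gangliosides. Mouse cells convert much of the common form, Neu5Ac, into the hydroxylated form Neu5Gc, and acetyl groups can be set on the sugar and taken off again. Neuraminidases cut it off. Siglec-E and its relatives on myeloid cells bind sialic acid on the same or on neighbouring cells and dampen their activation, so the sugar that these 10 genes make, alter or remove is part of the ligand of the receptor.

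The gene of the receptor, Siglece (ENSMUSG00000030474), was at log2 values of 8.92 and 8.96 in the KO libraries and of 10.38 and 10.14 in the WT libraries, where 8.04 is the value of a gene with no reads. Its KO libraries held 101 and 111 back-transformed counts against 859 and 666 in WT, and it fell by 1.32 (SE 0.107, adjusted p = 0.0138 in limma). Without KO A or KO B this call ended (adjusted p = 0.0545 and 0.0851). Back-transformed counts, obtained by undoing the variance-stabilizing transform, summed to between 29002408 and 30952251 per library after the authors' scaling, so they do not give the depth in reads. Markers of conventional dendritic cells were all in the table (15 of 15) and held 1.26% to 1.33% of counts in KO and 1.76% to 1.79% in WT, and 8 of them fell with 0 higher. Of all 11864 tested genes, 2.23% fell and 4.69% rose at an adjusted p under 0.05 in limma. Of the 10 other marker lists, immediate early genes included, 9 had a higher sum in both KO libraries than in both WT libraries, and the list of plasmacytoid dendritic cells did not. By the mean log2 value over a list's genes, which a few abundant genes sway less, 8 of the 10 did, and the B cell list no longer did. KO A stood apart from the other 3 libraries in Y-linked RNA, with 64.5 counts of Ddx3y against 3102 to 3979, and WT 1 was the lowest library for immediate early genes (0.0527% of counts against 0.157% to 0.474%). The members lie on autosomes in the GENCODE M21 annotation: Gne, Nans and Slc35a1 on chromosome 4, Cmas and Casd1 on chromosome 6, Nanp on 2, Neu3 on 7, Siae on 9, Cmah on 13 and Neu1 on 17.

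None of the 10 genes passed the threshold of an adjusted p of 0.05 between KO and WT: 0 rose and 0 fell in limma, and this was so in each of the 12 alternatives tried. Among all 11864 genes tested, 6.93% passed, 4.69% higher and 2.23% lower. At an unadjusted p under 0.05 there were 2 members, Cmah and Neu1, both with higher values in KO, against 24.7% of all tested genes (14.2% higher, 10.5% lower). The groups did not overlap for 8 members, 5 with KO above WT and 3 with KO below, against 56.2% of all tested genes (28.1% above, 28.2% below). The median difference of the 10 was -0.02 on the log2 scale, and that of all tested genes was -0.0017. The median size of a difference, ignoring its sign, was 0.15 in the members and 0.13 in all tested genes. In the plot of the members by library, Cmah and Neu1 lay apart between the groups by more than the others, while the remaining 8 differed by between -0.21 and 0.17.

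**Figure D1:**
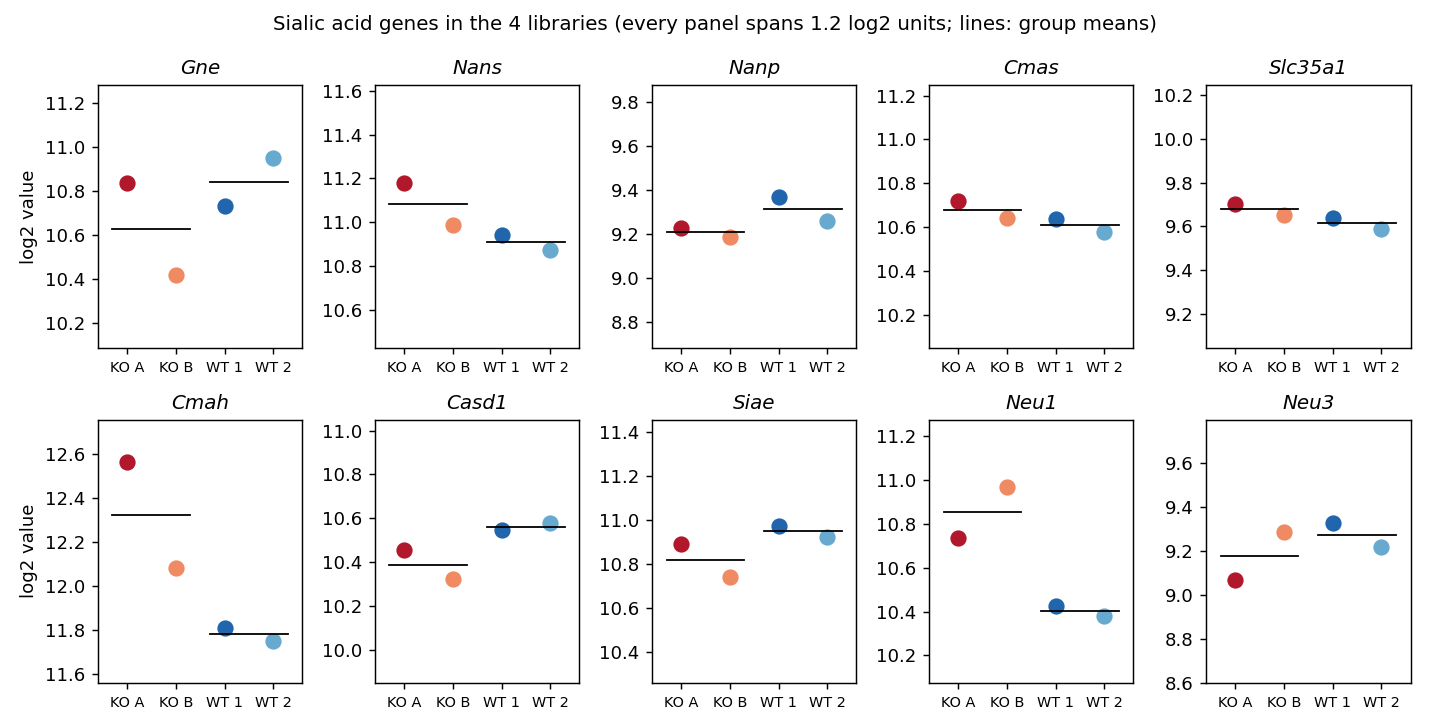
Log2 values of the 10 genes (vertical axes, each spanning 1.2 log2 units) in the 4 libraries (points), with group means as lines. Cmah and Neu1 show the widest gaps between KO and WT means, 0.55 and 0.45, and for Gne the KO and WT points interleave.

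Gne codes for the enzyme that performs the first committed steps, turning UDP-GlcNAc into phosphorylated N-acetylmannosamine, and it is the step at which the pathway is held back by its end product. Gne (ENSMUSG00000028479) was at 10.84 and 10.42 in KO A and KO B and 10.73 and 10.95 in WT 1 and WT 2. KO B was the low library, KO A lay between the WT libraries, and the groups overlapped. The difference of KO minus WT was -0.21 (SE 0.155, 95% interval -0.59 to 0.16, adjusted p = 0.448). The 2 KO libraries differed from each other by 0.42, more than the group means did. Without KO A the difference was -0.42 and without KO B it was near 0.

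Nans, the synthase that joins the mannosamine phosphate to phosphoenolpyruvate to form the sialic acid skeleton, was at 11.18 and 10.99 in KO A and KO B and 10.94 and 10.88 in WT 1 and WT 2. All KO values lay above all WT values, KO B only just, and the difference of 0.17 (SE 0.0986, 95% interval -0.06 to 0.41, adjusted p = 0.333) did not pass. Nanp, the phosphatase that releases free sialic acid, was at 9.23 and 9.19 in KO and at 9.37 and 9.26 in WT. Its KO values were both below WT, by 0.11 in the means (SE 0.0868, adjusted p = 0.503). Nanp stood near the bottom of the scale, where log2 differences are compressed: its counts were 190 and 176 in KO against 241 and 199.6 in WT, so the KO mean was 0.831 of the WT mean. Exons of Nans overlap those of Trim14 on the other strand, and exons of Nanp those of Ninl on the same strand. The reads of these pairs could have been split in counting, for Nans if strand was ignored, and their values are uncertain.

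Cmas attaches CMP to the free sugar, the activation that every sialyltransferase needs. Cmas was at 10.72 and 10.64 in KO A and KO B and 10.64 and 10.58 in WT 1 and WT 2, a spread of less than 0.2 over all libraries. KO B and WT 1 were almost level, and the difference was 0.07 (95% interval -0.14 to 0.28, adjusted p = 0.667). Slc35a1, the carrier of CMP-sialic acid into the Golgi, was at 9.70 and 9.65 in KO and at 9.64 and 9.59 in WT. This was the smallest difference of the 10 on this scale, 0.06 (95% interval -0.14 to 0.27, adjusted p = 0.702), with a mean of 378 counts in KO and 346 in WT. The scale compresses differences at such low counts. On log2 of the counts plus 1, the difference was 0.12 for Slc35a1 and 0.10 for Cmas. For the 5 genes of synthesis and transport together, 3 differences were positive and 2 negative, with a median of 0.06.

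Cmah is the hydroxylase that turns CMP-Neu5Ac into CMP-Neu5Gc, a gene that is inactive in humans and sets the balance of the 2 sialic acids on mouse cells. Cmah (ENSMUSG00000016756) was at 12.57 and 12.08 in KO A and KO B and 11.81 and 11.75 in WT 1 and WT 2. Both KO libraries were above both WT libraries, the WT pair were 0.06 apart, and the KO pair were 0.48 apart. In back-transformed counts these were 5557 and 3832 in KO against 3086 and 2937 in WT, a ratio of the means of 1.56. The difference of 0.55 (SE 0.156, 95% interval 0.17 to 0.92) had an unadjusted p of 0.0112 and an adjusted p of 0.0916 in limma, and did not pass. Of all tested genes, 5.77% differed by at least as much in either direction. The size rested on KO A: without KO A it was 0.30, and without KO B 0.79. KO A is also the library that stood apart in Y-linked RNA, and the part of this in the value of Cmah was not tested. The log2 value of Cmah minus that of Cmas, neither scaled by length, was 1.85 and 1.44 in KO A and KO B and 1.17 and 1.17 in WT 1 and WT 2. Cmas differed little between the groups, so this gap mostly restates the difference of Cmah.

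Casd1 adds acetyl groups to CMP-sialic acid in the Golgi, and Siae, an esterase, removes them; acetylated sialic acid is bound differently by several lectins. Casd1 was at 10.46 and 10.32 in KO and at 10.55 and 10.58 in WT, with both KO values below both WT values and a difference of -0.17 (SE 0.0929, 95% interval -0.40 to 0.05, adjusted p = 0.309). Siae was at 10.89 and 10.74 in KO and at 10.97 and 10.92 in WT, again with KO below WT, and a difference of -0.13 (SE 0.0932, 95% interval -0.36 to 0.09, adjusted p = 0.433). In both genes KO B was the lowest library. Casd1 minus Siae was -0.43 and -0.42 in KO A and KO B and -0.43 and -0.35 in WT 1 and WT 2, so the log2 gap between the adding and the removing enzyme differed by -0.04 between the groups. Exons of Siae overlap those of Spa17 and Tbrg1 on the other strand. The library kit was stranded, but whether the counting used strand is not given in the sources used here.

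Neu1 is the neuraminidase of the lysosome, which also acts at the surface of activated leukocytes and works in a complex with the protective protein Ctsa and the galactosidase Glb1. Neu1 (ENSMUSG00000007038) was at 10.74 and 10.97 in KO A and KO B and 10.43 and 10.38 in WT 1 and WT 2. Both KO libraries lay above both WT libraries, here with KO B on top. The counts were 1221 and 1515 in KO against 901 and 859 in WT, a ratio of the means of 1.55. The difference of 0.45 (SE 0.107, 95% interval 0.19 to 0.71) had an unadjusted p of 0.00470 and an adjusted p of 0.0571 in limma, the smallest of the 10 and short of the threshold. Its adjusted p ran from 0.0512 to 0.185 over the alternatives, and 8.55% of all tested genes differed by at least as much. The largest unadjusted p among the genes that passed was 0.00346.

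Of the partners of Neu1, Ctsa differed by -0.06 (SE 0.118, 95% interval -0.34 to 0.23) and Glb1 by -0.07 (SE 0.0895, 95% interval -0.28 to 0.15). Within each library, Neu1 minus Ctsa was -2.33 and -1.83 in KO A and KO B and -2.47 and -2.71 in WT 1 and WT 2 on the log2 scale. Both KO values were above both WT values, with group means 0.51 apart. This difference was not tested. Neu3, the neuraminidase of the plasma membrane that prefers gangliosides, was at 9.07 and 9.29 in KO A and KO B and 9.33 and 9.22 in WT 1 and WT 2. KO A was the lowest and KO B lay between the WT libraries, so the groups overlapped (difference -0.09, SE 0.105, adjusted p = 0.632). Neu3 had 141 and 211 counts in KO and 225 and 187 in WT, and without KO A its difference was 0.01, with the opposite sign.

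**Figure D2:**
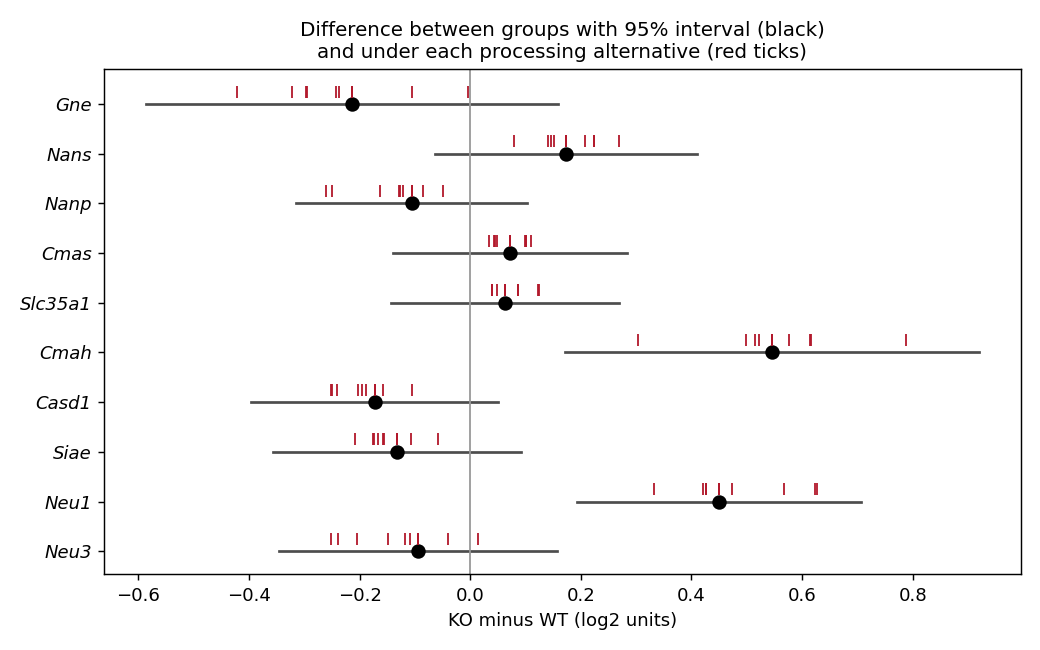
KO minus WT on the log2 scale (horizontal axis) for each gene: the point is the difference, the black line its 95% interval from limma, and the red ticks are the values under the alternatives. The intervals of Cmah (0.17 to 0.92) and Neu1 (0.19 to 0.71) lie above 0, and those of the other 8 genes include 0, with bounds from -0.59 to 0.41.

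The 95% intervals, which are not adjusted for the number of genes, show what differences these libraries leave possible. For Nanp, Cmas, Slc35a1, Casd1, Siae and Neu3 the bounds stayed within 0.4 log2 units on either side. This holds on the deposited scale, which compresses differences of genes with few counts. On log2 of the counts plus 1, the SE was 0.218 for Nanp, 0.274 for Neu3 and 0.169 for Slc35a1. On the deposited scale it was 0.0868, 0.105 and 0.0858. For these genes the bounds understate the fold changes in counts that remain possible. For Gne the lower bound was -0.59. An interval that includes 0 does not show that a gene was alike in the groups.

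Cmah and Neu1 had the lowest p-values of the 10, and the bases before their start sites show how their promoters differ in letters. The sequences are RefSeq's, build GRCm38.p6, read 5′ to 3′ on the gene's strand; capitals mark GGGCGG on either strand, the core of the GC box bound by Sp1 family factors.
Neu1, chr17:34931003-34931252, plus strand: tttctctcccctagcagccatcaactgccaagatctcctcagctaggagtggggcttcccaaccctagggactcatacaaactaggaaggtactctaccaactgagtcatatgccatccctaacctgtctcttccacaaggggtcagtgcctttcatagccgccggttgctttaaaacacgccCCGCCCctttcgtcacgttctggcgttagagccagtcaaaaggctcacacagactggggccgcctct
Cmah, chr13:24327154-24327403, plus strand: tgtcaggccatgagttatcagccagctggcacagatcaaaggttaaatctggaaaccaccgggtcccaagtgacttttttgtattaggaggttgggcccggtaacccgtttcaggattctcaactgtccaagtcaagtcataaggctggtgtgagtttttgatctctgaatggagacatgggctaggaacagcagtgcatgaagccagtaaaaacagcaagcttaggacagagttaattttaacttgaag
The Neu1 window held 1 GC box, which begins 67 bases before the start, and 8 CpG pairs, and was 54.4% G or C. The first of the 2 Cmah windows held no GC box and 3 CpG pairs and was 45.6% G or C, and the second, at another start site, also held no GC box. Windows were found for 7 of the 10 genes (not Nans, Nanp and Siae), 10 windows in all. A GC box was in 5 of these 10 windows, of Slc35a1, Casd1, Neu1 and Neu3, against 32.7% of the 32851 windows of all genes. The E-box CACGTG, which TFEB family factors of lysosomal genes bind, was in 0 of the 10 windows and in 6.02% of all windows. These counts describe letters in 250 bases, and binding was not measured.

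Levels of different genes were compared per kilobase of exon, using GENCODE M21 lengths. Nans was the highest, with a mean of 715 counts per kilobase over the 4 libraries, followed by Cmas with 636, Neu1 with 454 and Cmah with 378. Casd1 and Siae had 240.1 and 232, Gne 199, Slc35a1 168 and Nanp 145, and Neu3 was the lowest with 57.1. Neighbours in this order had overlapping ranges over the libraries, except that every library of Cmah was above every library of Casd1 (lowest 289 against highest 265), and every library of Nanp above every library of Neu3 (126 against 67.3). The places of Nans, Nanp and Siae are uncertain because of the overlapping exons named above. Using the longest transcript in place of all exons, Siae came before Casd1 and the other ranks stayed. Among all tested genes, 76.5% had a lower level per kilobase than Nans, 35.9% had a lower level than Gne and 7.98% a lower level than Neu3.

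**Figure D3:**
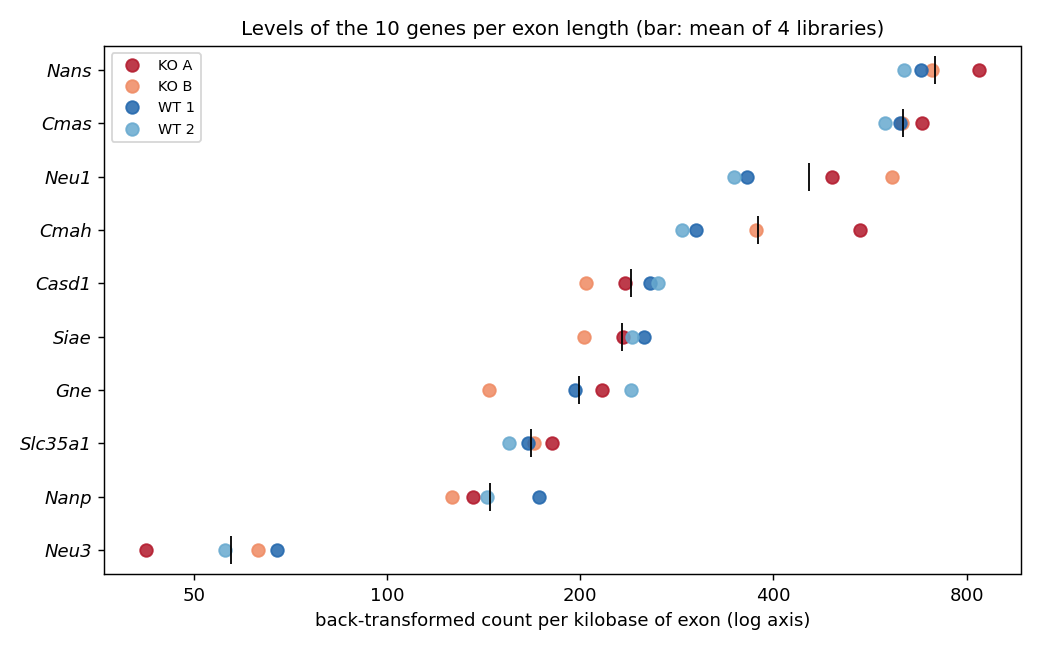
Back-transformed counts per kilobase of exon (horizontal log axis) for the 10 genes in the 4 libraries (points), with the mean as a black bar. Nans and Cmas lie highest, at 638 to 836 and 596 to 682, and Neu3 lies lowest, at 42.1 to 67.3.

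Summed markers of other cell types differed between the libraries, and their part in the values of Cmah and Neu1 was not tested. In bulk RNA of sorted cells, more cells of a type and more RNA per cell cannot be told apart. Counts of markers are to be read against all tested genes, of which 4.69% were called higher and 2.23% lower. Without overlap between the groups, 28.1% of all tested genes lay above WT in KO and 28.2% below. The 7 plasmacytoid dendritic cell markers, among them Siglech, Tcf4 and Ccr9, made up 0.105% of all counts for KO A, 0.0556% for KO B, and 0.0591% and 0.0745% in WT 1 and WT 2. KO A was the highest library for this list and for Cmah. KO B was the lowest for the list and second highest for Cmah. Of the 7 markers, 0 passed between the groups. The full order of libraries of Cmah was that of the monocyte and neutrophil sums, 2 of 11 lists. By the mean log2 value it was that of 1 list, plasma cells. The log2 value of Cmah minus that of Siglech was -0.87 and -0.31 in KO A and KO B and -0.59 and -0.96 in WT 1 and WT 2. The groups overlapped on this measure, which was not tested. Siglech varied more within the groups (SD 0.74 in KO and 0.21 in WT) than Cmah (SD 0.34 and 0.04). For macrophages, the 10 markers, among them Hmox1, Adgre1 and Vcam1, held 0.0392% and 0.0570% in KO A and KO B and 0.0291% and 0.0244% in WT 1 and WT 2, the same order of libraries as for Neu1, and 4 of 10 rose with 0 lower. The order of libraries was the same by the mean log2 value of the macrophage list. This order was not particular to macrophages. The sums of the NK cell, B cell and plasma cell lists had it too, so that 4 of 11 lists shared the order of Neu1. By the mean log2 value 3 lists shared it: NK cell, macrophage and neutrophil. NK cell markers held 0.0484% and 0.0601% in KO and 0.0287% and 0.0272% in WT, and 8 of 9 rose with 0 lower. B cell markers held 0.0655% and 0.0755% in KO and 0.0623% and 0.0551% in WT, of which Ighm alone gave 80.9% to 91.6%. Ighm was also the 1 of 8 that rose, the other 7 overlapped between the groups, and the mean log2 value of the list was 9.95 and 10.34 in KO and 10.36 and 9.83 in WT. Plasma cell markers held 0.0306% and 0.0336% against 0.0213% and 0.0212%, with 1 of 5 tested higher. Monocyte markers held 0.289% and 0.285% in KO and 0.191% and 0.19% in WT, with 5 of 10 higher. Erythroid markers held 0.123% and 0.187% in KO and 0.00958% and 0.0544% in WT, with 4 of 9 higher, a median difference of 2.10 and no overlap between the groups for any of the 9. The immediate early genes, which respond within a short time to stimulation, had a median difference of 2.08 with 8 of 12 higher. T cell markers held 0.0117% and 0.0108% in KO and 0.00739% and 0.00773% in WT, with 2 of 5 tested higher. The list was mixed: without overlap between the groups, 3 of the 5 lay above WT in KO and 1 below. Neutrophil markers held 0.825% and 0.789% in KO and 0.758% and 0.285% in WT, with 2 of 10 higher. Tnfrsf17 of the plasma cell list had no row in the table, and no marker of these lists that had a row was at 0 in any library.

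**Figure D4:**
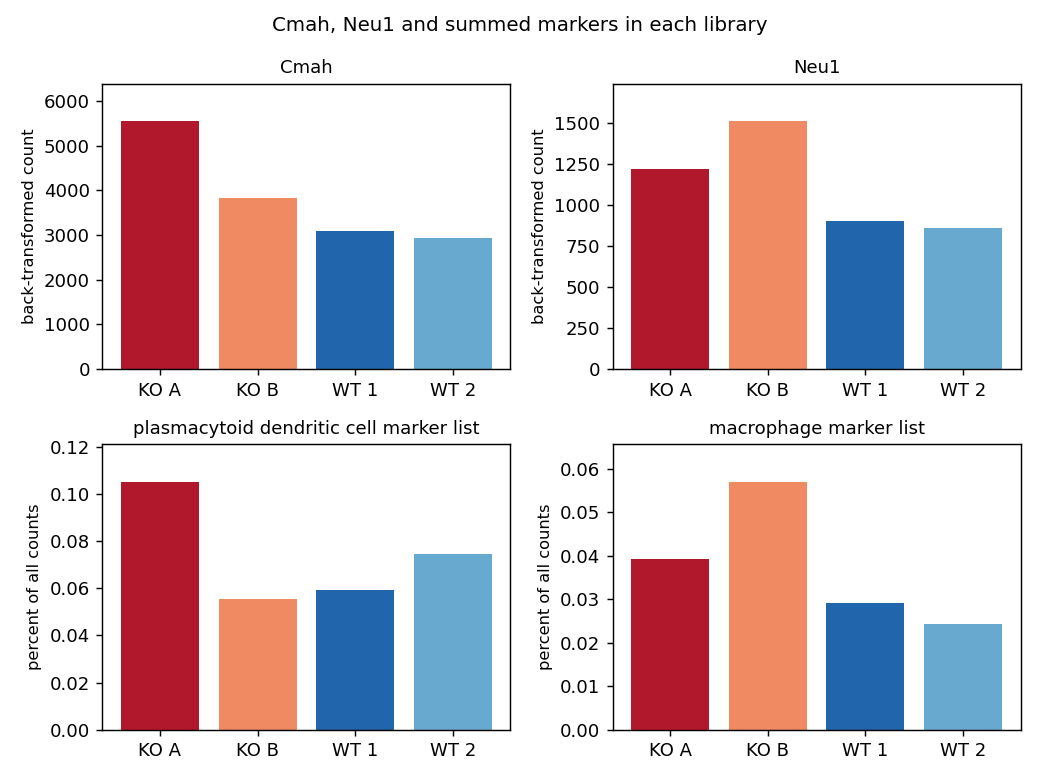
Back-transformed counts of Cmah and Neu1 (upper row) and the summed share of all counts, in percent, held by plasmacytoid dendritic cell and macrophage markers (lower row) in each library; bars start at 0. KO A is highest for Cmah (5557) and for the plasmacytoid list (0.105%), and KO B is highest for Neu1 (1515) and for the macrophage list (0.0570%). Sums not drawn here shared orders of libraries as well: NK cell, B cell and plasma cell that of Neu1, monocyte and neutrophil that of Cmah.

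For the genes around the 10 in the pathway, counts are to be read against all tested genes, of which 6.93% passed and 24.7% had an unadjusted p under 0.05. At such shares, 0 calls in a list of fewer than 20 genes is near the background. For UDP-GlcNAc supply, which feeds Gne, 0 of 7 tested genes rose and 0 fell, with a median of -0.10 (0 at an unadjusted p under 0.05 in limma). Of 6 tested genes of other release and catabolism, which include the lyase Npl, the lysosomal exporter Slc17a5 and Ctsa, 0 rose and 0 fell, with a median of -0.06 (1 at an unadjusted p under 0.05). Neu2 had no row in the table and Neu4 was under the filter. Among 9 other Golgi nucleotide sugar transporters 0 rose and 0 fell, with a median of -0.10 (1 at an unadjusted p under 0.05). Of 18 other lysosomal glycosidases and their activators, which break down glycans beside Neu1, 0 rose and 0 fell, with a median of -0.07 (7 at an unadjusted p under 0.05, 2 higher and 5 lower). With quantile normalization 2 of these 18 were called lower.

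For the next lists the same shares of all tested genes apply (4.69% called higher, 2.23% lower), and lists this short say little against them. Ugcg, the enzyme that starts glucosylceramide and thereby ganglioside synthesis, was at 11.72 and 11.84 in KO and at 11.40 and 11.31 in WT. Ugcg rose by 0.43 (SE 0.0884, adjusted p = 0.0423), 1 of 5 tested genes of ganglioside core synthesis, with 0 lower. This call ended with quantile normalization (adjusted p = 0.0739) and with libraries shifted to a common median (adjusted p = 0.0522), where the difference was 0.38 and 0.40. B4galt6, a lactosylceramide synthase, was at 10.51 and 10.56 in KO and at 11.16 and 10.98 in WT and fell by 0.54 (SE 0.0980, adjusted p = 0.0322), the 1 gene of 12 tested in the list of N-glycan branching and galactosylation that passed. B4galt5, the other lactosylceramide synthase, is in the same list and went the other way. It was at 12.05 and 11.77 in KO and at 11.51 and 11.58 in WT. Its difference of 0.37 (SE 0.113, adjusted p = 0.108 in limma) did not pass. St3gal5 and St8sia1, which add the first and the second sialic acid to lactosylceramide, differed by 0.20 and -0.51 (adjusted p = 0.419 and 0.0687) and did not pass.

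Of 13 sialyltransferase rows tested, which transfer the CMP-sialic acid that Slc35a1 brings in, 1 rose and 1 fell. St8sia6, which adds sialic acid to sialic acid, was at 10.23 and 10.54 in KO and at 11.53 and 11.24 in WT and fell by 0.998 (SE 0.144, adjusted p = 0.0211). St3gal6, which adds sialic acid to galactose, was at 10.19 and 10.51 in KO and at 9.27 and 9.72 in WT and rose by 0.85 (SE 0.174, adjusted p = 0.0411). The call of St3gal6 ended with quantile normalization and with counts on a plain log2 scale (adjusted p between 0.0525 and 0.0544), where the difference was 0.84 with quantile normalization and 1.53 on log2 of the counts plus 1. For the 4 enzymes called, no call held without KO A or without KO B, settings in which 0 and 3 genes of the whole table passed. Without WT 1 the calls of B4galt6 and Ugcg also ended (adjusted p = 0.0862 and 0.0704), as did that of Ugcg without WT 2 (adjusted p = 0.125). Marker lists, given above, differed between the same groups. Conventional dendritic cell markers were lower in the KO libraries. Erythroid, immediate early, NK cell, T cell, plasma cell, macrophage, monocyte and neutrophil lists were higher, by sum and by mean log2 value. The part of these lists in the calls of the 4 enzymes was not tested.

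**Figure D5:**
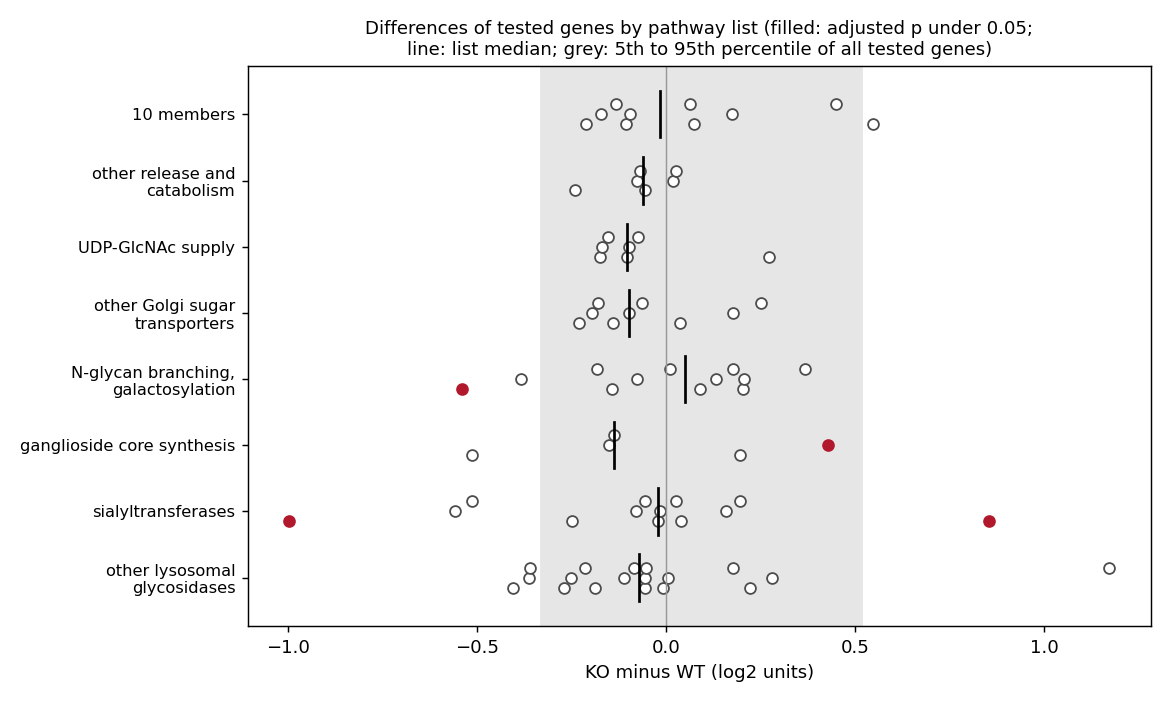
KO minus WT on the log2 scale (horizontal axis) for each tested gene (points) of the 10 members and 7 related lists; filled points have an adjusted p under 0.05, lines are list medians, and the grey band holds the middle of all tested genes from the 5th to the 95th percentile (-0.33 to 0.52). No member is filled, and of the members Cmah at 0.55 lies just outside the band.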

How the data were processed

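RNA of 2 KO and 2 WT samples was read in 1 library each. The deposited values are log2 values after a variance-stabilizing transform and scaling between libraries by the authors; the unit was read from the values, which share a lowest value of 8.04. The tools named in the submitters' processing notes are DESeq2 and Salmon 1.10.1, with build GRCm39 and no role given, and neither the annotation nor a gene filter is named there. Per the labels' protocols, a stranded total RNA kit for low input was used. Counts were recovered by undoing the transform from the lowest value.

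Symbols came from GENCODE M21 (17289 of 17300 identifiers matched). The 11864 genes whose mean exceeded the lowest value by 1 log2 unit or more were fitted in limma 3.58.1 (R 4.3.3) with an intensity trend, two-sided, with Benjamini-Hochberg adjustment over all of them and a threshold of 0.05. Moderation gave 6.48 degrees of freedom. Alternatives were filters, scalings, pseudocounts of 1 and 10, moderation and leaving out each library. Named were the 10 members, Siglece, up to 4 genes past the threshold per related list and up to 3 markers per list. After values were seen, Ctsa, Glb1, Npl, Slc17a5, B4galt5, St3gal5, St8sia1, Ddx3y and genes that overlap members or have no tested row were also named. Promoter motifs were likewise chosen after values were seen. Members and lists were chosen with earlier results of these data known.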

Additional observations from a re-analysis of the deposited data

How the results depend on the processing

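No member passed the threshold under any of the 12 alternatives, so that count stayed at 0. Of the member differences recomputed, 116 kept their direction and their side of the threshold; the 1 other, that of Neu3, changed sign without KO A (0.0147). The median difference of the members, -0.02, was 0.0721 with the filter at 2 log2 units, which leaves 7 members, and was 0.0245 and 0.0409 without KO A and KO B and 0.0232 and -0.0325 without WT 1 and WT 2. The number of genes past the threshold in the whole table, 822, ran from 0 (without KO A; 2508 had an unadjusted p under 0.05 in limma) to 820 when 1 library was left out, with 3 without KO B. Their share of higher calls was 67.8%, and 56.5% with quantile normalization. The Siglece difference was -1.302 and -1.343 without KO A and KO B, and between -1.441 and -1.204 over all left-out libraries; with 1 library in a group, that library was assumed to vary like the others. With log2 of the counts plus 1, it was -2.82. Siglece and St3gal6 were under the filter of 2 log2 units and have no value there. No paired analysis was possible because the labels pair no KO library with a WT library. The KO columns also carry numbers that no KO title has. Nanp and Neu3 had the lowest counts of the 10, and the log2 values understate their differences (-0.11 and -0.09, against -0.26 and -0.25 on log2 of the counts plus 1).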
